A study of Mus musculus with 6 samples.

Results

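The clustered protocadherins were followed through their variable exons in 6 RNA sequencing libraries of mouse dorsal root ganglia, which hold the cell bodies of sensory neurons with their glia. Members were the genes of the alpha, beta and gamma clusters on chromosome 18, chosen by their symbols in the GENCODE M21 annotation, and 58 gene entries under 57 symbols met that rule. Of these, 39 had rows of their own among the 37086 genes used here. They were 6 of 12 alpha genes, both alpha C genes, all 22 beta genes, 5 of 12 gamma A genes, 1 of 7 gamma B genes and all 3 gamma C genes. One alpha entry that shares the symbol Pcdha11 was called Pcdha10 after the RefSeq gene of the same span. The remaining 19 alpha and gamma entries were not analysed singly.

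All libraries came from 1 RNA pool, taken from the ganglia of 18 wild-type C57BL/6J embryos of unknown sex at embryonic day 14.5 (TS22). For high volume, 9 µl of diluted RNA went into a SMARTer low-input reaction of the HV kit. For low volume it was 1 µl with another kit of that line, so volume and kit cannot be told apart. Each group held 1 library from 3 ng, 1 from 10 ng and 1 from 30 ng of RNA. The libraries are technical repeats of the pool, and every SD, SE and p-value below measures technical spread only.

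Clustered protocadherins are cell-surface cadherins that bind copies of themselves on neighbouring membranes. In the alpha and gamma clusters each gene has its own promoter and large first exon, called the variable exon, which encodes the extracellular, membrane-spanning and proximal cytoplasmic parts and is spliced to 3 constant exons shared by the whole cluster. Beta genes lack such shared exons. Single neurons choose a few alpha, beta and gamma promoters in a largely random way, which gives each cell its own surface identity, used in self-avoidance of its branches, whereas the C-type genes at the end of the alpha and gamma clusters follow more regular patterns. In bulk RNA fewer cells that chose a gene and less RNA per cell cannot be told apart.

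A tag is a counted read, and RPKM is the tag count scaled to feature length and to the tags of the library. The libraries of 3, 10 and 30 ng held 15482187, 25861732 and 28190647 tags in high volume and 16924133, 29052663 and 33940541 tags in low volume. The variable exons of the 39 members held 1261, 2290 and 2524 tags in high volume and 1002, 3029 and 3676 tags in low volume. The 8 sensory neuron markers all had a mean RPKM over 10, with a median of 247, while the 5 spinal cord markers had a median of 0.0108, and none of the 5 reached a mean RPKM of 1. Of the 6 glial markers 5 reached a mean RPKM of 1, and all 4 endothelial, all 4 fibroblast and meningeal and all 4 macrophage markers did, as did 2 of 3 muscle markers. The part of these other cells in the protocadherin levels was not tested.

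Pcdhgc3, a C-type gene of the gamma cluster, was the most abundant member in every library. Its variable exon (ENSMUSG00000102918, GRCm38 chromosome 18, 37806410 to 37808977) had an RPKM of 4.38, 4.70 and 5.64 in the high-volume libraries of 3, 10 and 30 ng, and of 4.14, 6.45 and 6.10 in the low-volume libraries. Every one of these values lay above the highest RPKM of any other member in the same library. Its mean of 5.23 ± 0.96 (SD, n = 6 libraries) made up 17.5% ± 1.67 of the summed RPKM of the 39 variable exons. Its coefficient of variation over the 6 libraries was 18.3%, the lowest of the members with tags, against a median of 58.5%. In the 10 and 30 ng libraries alone it was 13.3%, against a median of 30.5%, and Pcdhb17 at 7.11%, Pcdhb11 at 7.65%, Pcdhgc4 at 7.71% and Pcdhgb6 at 12.1% varied less.

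The other C-type genes were lower. Pcdhac2, which serotonergic axons of the mouse need for even spacing, had an RPKM of 1.06, 1.60 and 1.43 in high volume and 0.231, 1.13 and 1.17 in low volume, a mean of 1.10 ± 0.47 (SD, n = 6). Its low-volume 3 ng library stood below all others. Pcdhac1 had an RPKM of 1.11, 0.746 and 1.00 in high volume and 0, 0.650 and 0.943 in low volume, with 0 tags in the low-volume 3 ng library and a mean of 0.743 ± 0.40.

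Pcdhgc4, the gamma isoform that many mouse neurons need for survival, had an RPKM of 0, 0.506 and 0.513 in high volume and 1.57, 0.462 and 0.558 in low volume. The 4 libraries of 10 and 30 ng lay close together, at a mean of 0.510 ± 0.039 (SD, n = 4), and the lowest and the highest value both came from 3 ng. Pcdhgc5, whose expression in the mouse forebrain rises after birth, had tags in 2 of 6 libraries. It had 37, 0 and 0 tags in high volume and 0, 0 and 1 tags in low volume, so 37 of its 38 tags came from the high-volume 3 ng library. With 3 tags as the limit that a count of 0 allows, an exon of 2500 bases could reach an RPKM of up to 0.0464 and 0.0426 in the high-volume 10 and 30 ng libraries. That limit and the limits below cover counting error only.

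**Figure D1:**
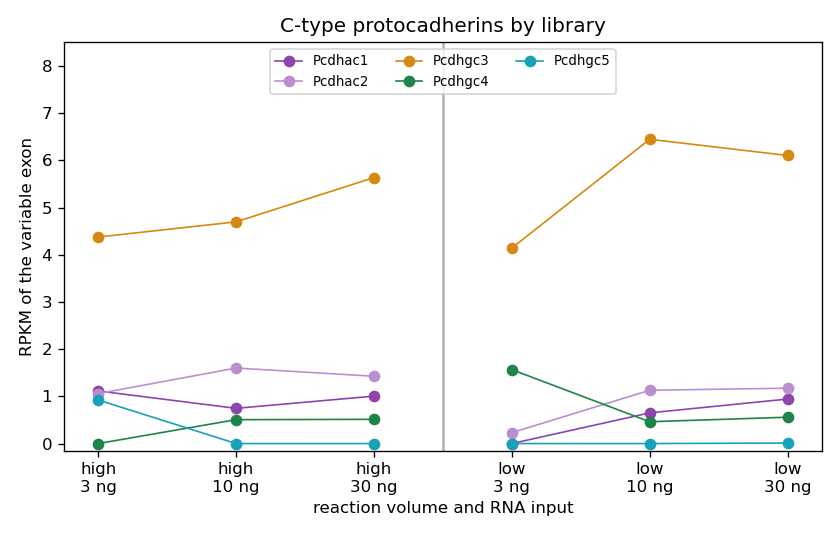
RPKM of the variable exon of the 5 C-type genes (y axis) in the 3 high-volume libraries, left, and the 3 low-volume libraries, right, each by RNA input (x axis). Points are single libraries, joined by lines within a volume. Pcdhgc3 lies between 4.14 and 6.45 and above the other 4 genes throughout, and Pcdhgc5 leaves 0.011 or less only at 3 ng in high volume, at 0.923.

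To rank the C-type genes, log2(RPKM + 1) was set against each other in all 10 pairs of them. The test was an exact permutation of signs over the 6 libraries, two-sided, and 0.0312 is the smallest p it can give. Pcdhgc3 exceeded Pcdhac2 by 1.59 ± 0.33 (SD of the log2 difference), Pcdhac1 by 1.86 ± 0.36, Pcdhgc4 by 2.00 ± 0.52 and Pcdhgc5 by 2.47 ± 0.52, each in 6 of 6 libraries with an exact p of 0.0312. Pcdhac2 exceeded Pcdhgc5 in 6 of 6 libraries by 0.87 ± 0.54, with the same exact p. These 5 pairs had a permutation p of 0.0625 after adjustment over the 10 pairs, so 0 pairs passed the threshold of 0.05. With 6 libraries a pair can pass only if most of the 10 pairs reach the smallest p. The adjusted result therefore cannot be read as a lack of difference. The added 1 exceeds most of these RPKMs and sets the size of the differences. With 0.1 in its place they were 2.29, 2.98, 3.30 and 5.13 for Pcdhgc3 over Pcdhac2, Pcdhac1, Pcdhgc4 and Pcdhgc5 and 2.84 for Pcdhac2 over Pcdhgc5. Again 0 pairs passed, but the added value cannot change which gene is higher in a library, so this outcome was fixed. Among the lower C-type genes Pcdhac2 minus Pcdhac1 was 0.27 ± 0.20 (exact p = 0.0625) and Pcdhac1 minus Pcdhgc4 was 0.14 ± 0.81 (exact p = 0.625), each with the first gene higher in 5 of 6 libraries.

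Of the 6 regular alpha genes with rows, Pcdha9 and Pcdha2 led and Pcdha1 was lowest. Pcdha9 had an RPKM of 2.29, 1.29 and 0.958 in high volume and 1.07, 1.35 and 1.41 in low volume, a mean of 1.40 ± 0.47 (SD, n = 6). Pcdha2 had 1.30, 0.761 and 1.13 in high volume and 1.63, 1.28 and 0.901 in low volume, a mean of 1.17 ± 0.31. For both genes the groups overlapped, and for Pcdha2 both 3 ng libraries were above the 10 and 30 ng libraries. Pcdha11 followed at 0.915 ± 0.39, but 97.7% of its variable exon overlaps Gm10545 on the other strand, and the counts do not use strand. Pcdha12, at 0.890 ± 0.52, shares 18.8% of its exon with the same gene. Pcdha10 averaged 0.488 ± 0.29 and Pcdha1 0.243 ± 0.17, and each had 0 tags in 1 of the 3 ng libraries.

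Among the regular gamma genes Pcdhgb6, the only gamma B gene with rows, was highest, at an RPKM of 3.22, 1.43 and 1.92 in high volume and 2.10, 1.78 and 1.71 in low volume. Its mean was 2.03 ± 0.63 (SD, n = 6), the next after Pcdhgc3, and both of its 3 ng values were above its 10 and 30 ng values. Pcdhga3 had 1.05, 1.83 and 1.49 in high volume and 1.56, 1.15 and 1.91 in low volume, a mean of 1.50 ± 0.35, with overlapping groups. Pcdhga11 averaged 1.48 ± 0.57 and Pcdhga12 0.946 ± 0.39, with 51.6% and 10.4% of their variable exons inside Gm26672, an antisense gene whose tags cannot be separated from theirs. Pcdhga8 and Pcdhga9 were lowest, at 0.442 ± 0.37 and 0.397 ± 0.37.

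The 22 beta genes were mostly lower than the other clusters in RPKM, with a median of 0.297, against 0.903 for the 8 alpha and alpha C genes and 0.946 for the 9 gamma genes. Beta values cover the whole transcript, and those of the other clusters the first exon alone. Pcdhb9 led with an RPKM of 1.35, 1.19 and 1.09 in high volume and 0.387, 2.51 and 1.32 in low volume, a mean of 1.31 ± 0.69 (SD, n = 6). Pcdhb17 had 0.138, 1.19 and 1.39 in high volume and 1.66, 1.34 and 1.23 in low volume, a mean of 1.16 ± 0.53, with 1 low value at 3 ng in high volume. The third, Pcdhb7, had 0.682, 1.00 and 0.911 in high volume and 0.017, 1.57 and 1.60 in low volume. Its low-volume libraries were the 2 highest and the lowest of the 6. Pcdhb2, at 0.134 ± 0.11, was lowest among the beta genes with tags, and Pcdhb1, the first gene of the cluster, had 0 tags in all 6 libraries, which for 2500 bases allows an RPKM of at most 0.0354 in the deepest library and 0.0775 in the shallowest.

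**Figure D2:**
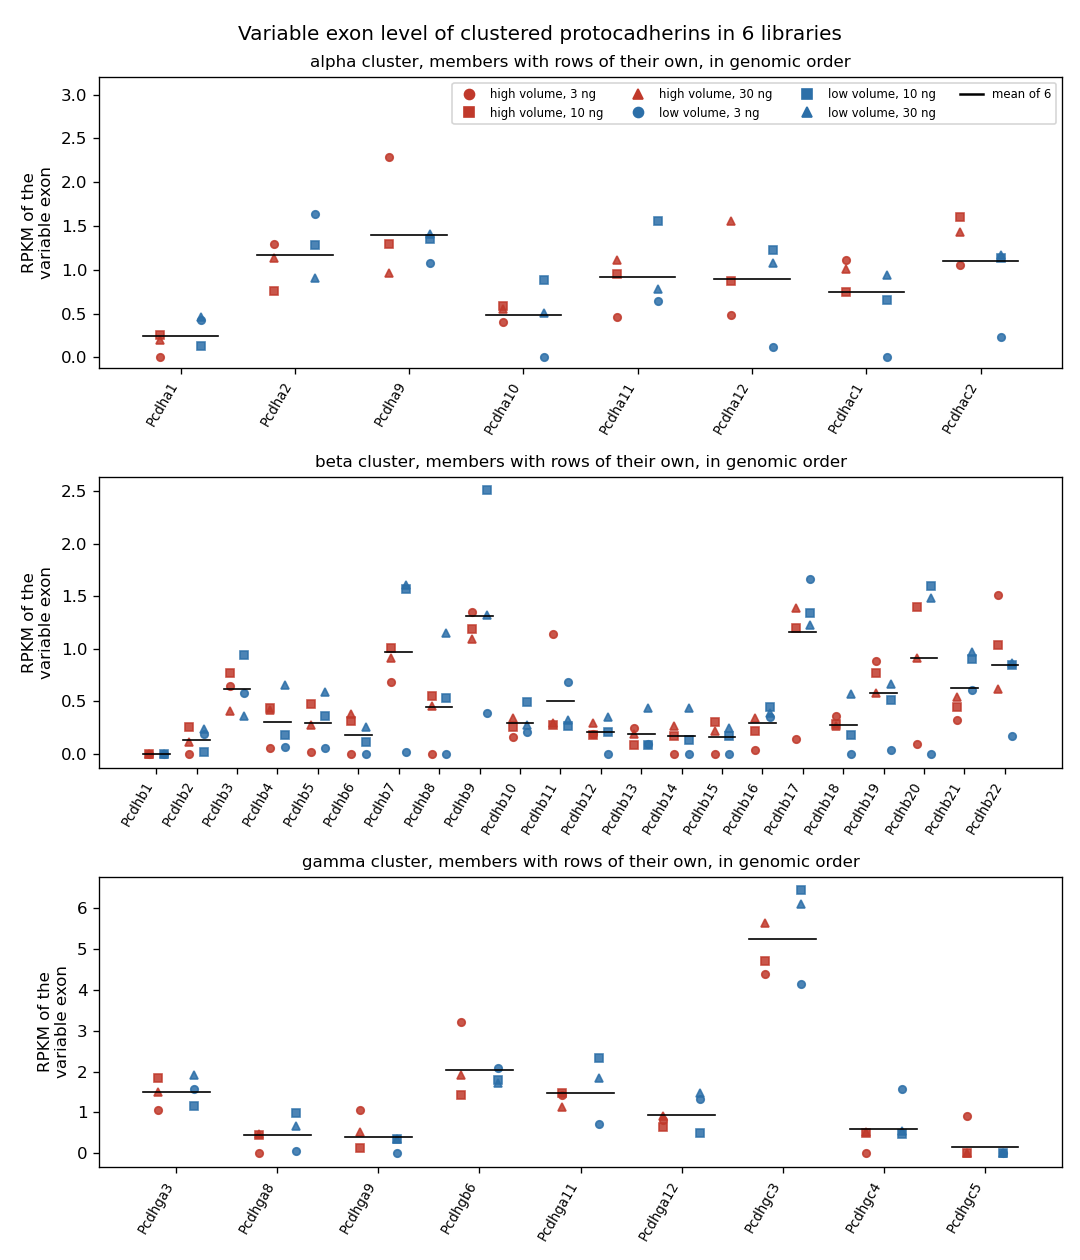
RPKM of the variable exon (y axis, a separate scale for each cluster) of the 39 members in genomic order, with high-volume libraries left and low-volume libraries right of each tick, the RNA input as the symbol and the mean of 6 libraries as a black line. Pcdhgc3 at a mean of 5.23 stands above the rest, Pcdhb1 is at 0 in all 6 libraries, and circles (3 ng) are often the lowest or the highest symbols of a gene.

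In the order of mean RPKM only the first step, Pcdhgc3 over Pcdhgb6, was present in 6 of 6 libraries. No later member exceeded its next lower neighbour in more than 5, so neighbours further down the order were not separated beyond their spread. A mean RPKM of 1 or more was reached by 9 of 39 members, against 33.8% of the 37086 genes. The measures are unlike, since alpha and gamma members enter with the first exon alone and other genes with the whole transcript. With transcript RPKM, shared constant exons included, 19 of 39 members reached 1. By variable exon it was 13 of 39 when the libraries of 10 and 30 ng alone were averaged, a check added after the data were seen. The alpha cluster made up 23.0% ± 2.58 of the summed RPKM of the 39 members, the beta cluster 33.7% ± 6.16 and the gamma cluster 43.3% ± 6.64 (SD, n = 6 libraries). These shares leave out the 19 entries without rows of their own. The gamma share was 46.2%, 37.4% and 40.9% in high volume and 55.4%, 39.3% and 40.4% in low volume, so that in both volumes it was highest at 3 ng. The beta share was 28.2%, 38.9% and 33.4% in high volume and 24.6%, 37.6% and 39.6% in low volume, and was lowest at 3 ng in both. Gamma exceeded beta in 5 of 6 libraries per length, while in CPM, which is not scaled to length, beta led with 42.0% over gamma with 38.8%. Beta genes are counted over their whole transcript, and alpha and gamma genes over the first exon alone. The shares therefore do not rank the clusters by their output.

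Some entries without rows lie inside the introns of upstream members, whose tags the files count as well. The stretch between the variable exons of Pcdha2 and the next listed exon, where Pcdha3 lies, held 24, 69 and 65 tags in high volume and 29, 61 and 98 in low volume. If all of them lay in the variable exon of Pcdha3, its RPKM would be 0.892 ± 0.21 (SD, n = 6). Put in the same way onto all exons of a stretch, the RPKM per exon was 0.974 ± 0.29 over Pcdha5 to Pcdha8. It was 0.879 ± 0.26 over the 7 gamma A and gamma B genes between Pcdhga3 and Pcdhga8, 1.11 ± 0.15 over Pcdhga10 and Pcdhgb7, 0.651 ± 0.49 for Pcdhgb5 and 0.524 ± 0.36 for Pcdhgb8. These are upper values, since 12 stretches with no member inside also held tags, at a median RPKM of 0.0862 over their length. Those 12 ran from 0.0103 to 0.508. On that same scale the stretches with members ran from 0.181 to 0.520, so the ranges overlap. The variable exon of Pcdha4 coincides with the entry Gm42416, which had 0, 79 and 29 tags in high volume and 0, 90 and 82 tags in low volume.

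The shared constant exons carried far more signal than any variable exon. The last alpha constant exon (chromosome 18, 37184946 to 37187657) had an RPKM of 12.4, 19.8 and 15.4 in high volume and 16.2, 25.8 and 22.5 in low volume, a mean of 18.7 ± 4.97 (SD, n = 6). The last gamma constant exon (37839903 to 37841873) had 52.3, 46.6 and 50.7 in high volume and 57.9, 58.0 and 57.7 in low volume, a mean of 53.9 ± 4.76. In both clusters the constant exons before it are 59 and 89 bases long, with mean RPKMs of 23.2 and 29.1 in alpha and 44.6 and 52.1 in gamma, while the introns between constant exons stayed at means of 0.045 to 0.159.

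The last constant exon exceeded the summed RPKM of the listed variable exons 2.78 ± 0.82 times in alpha and 4.23 ± 0.41 times in gamma. With the upper values of the entries without rows added, the ratio was 1.55 ± 0.45 in alpha, ranging from 0.915 to 2.19, and 2.45 ± 0.40 in gamma, ranging from 2.16 to 3.14. Pcdhga1 and Pcdhga2 are not in these sums. Position along the transcript moves with this ratio, since the constant exons lie at the 3′ end next to the poly(A) tail on which the cDNA is primed, and its part in the ratio was not tested.

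Whole-transcript values therefore hide the differences between members. Over the 9 gamma transcripts the mean RPKM ran from 22.9 to 27.1, a 1.18-fold range, whereas their variable exons ran from 0.156 to 5.23, a 33.6-fold range. The lowest is Pcdhgc5, whose mean rests on the high-volume 3 ng library and is 0.0022 without it, and without Pcdhgc5 the range was 13.2-fold. The transcript of Pcdhgc5 was at 24.2 ± 2.31 although its own exon had tags in 2 of 6 libraries. In alpha, 6 transcripts lay between 10.6 and 10.9, and those of Pcdha1 and Pcdha2, whose last exon ends earlier in the files, were at 3.48 ± 0.63 and 4.26 ± 0.51. With transcript RPKM in place of variable exon RPKM, 19 of 39 members reached 1.

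**Figure D3:**
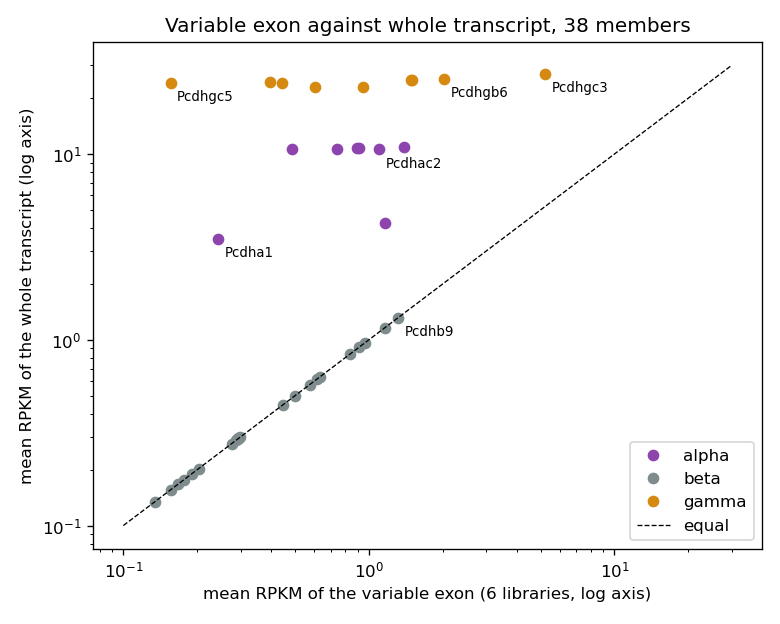
Mean RPKM of the whole transcript (y axis, log) against mean RPKM of the variable exon (x axis, log) for the 38 members with tags, each point 1 member over 6 libraries, with the line of equal values. Beta genes lie on the line, the 9 gamma genes form a band from 22.9 to 27.1 whatever their variable exon, and the alpha genes form a band near 10.7 with Pcdha1 and Pcdha2 below it.

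The variable exons also differed in sequence. Their GC content in the GRCm38 reference was 52.9% to 55.1% in the 6 alpha genes, 50.6% to 53.3% in gamma A, 54.8% to 56.8% in gamma C and 41.2% to 52.6% in the beta genes, whose exons are up to 7131 bases long. The share of 50-base windows that recur in another member, where a read of that length cannot be placed by sequence alone, was 10.1% to 19.2% in the 6 alpha genes, 0% to 12.0% in the beta genes, 0% to 4.25% in gamma A and 11.9% in Pcdhgb6. It was 0% in all 5 C-type genes, Pcdhgc3 included. The treatment that the authors chose for reads with several matches is unknown. The 6 alpha genes, Pcdhgb6, Pcdhb6, Pcdhb11 and Pcdhb12 each had over 10% of shared windows. Placement of their reads is therefore less certain than for the C-type genes. This concerns placement alone and not the spread between libraries, and the effect of shared windows on the levels was not tested.

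The comparison of reaction volumes asked whether the same RNA gave other protocadherin counts in the larger reaction. With edgeR 0 of the 37 members that passed the filter on low counts had an adjusted p under 0.05, as did 0.0062% of the 16119 genes tested, and blocking on the paired inputs (replicate block) left 0 genes of any kind past it. The members without a test were Pcdhb1 and Pcdhgc5. At an unadjusted p under 0.05 there were 0 members, against 6.64% of all genes, and DESeq2, with 0 members at an unadjusted p under 0.05 too, gave them no adjusted p. The log2 difference was above 0 in 21 of 37 members, against 51.9% of all genes, with a median of 0.13 against 0.02. Under total-count scaling both medians were lower, at 0.02 for the members and -0.10 for all genes.

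The members with the lowest unadjusted p were Pcdhb21, Pcdhac2 and Pcdhb19. Pcdhb21 had 23, 54 and 71 tags in high volume and 48, 122 and 153 tags in low volume. In CPM, tags scaled to the total of each library, that was 2.22 ± 0.56 in high volume and 4.15 ± 0.99 in low volume (SD, n = 3), with no overlap between the groups, and the log2 difference was -0.78 with an SE of 0.48 (edgeR adjusted p = 0.794). Pcdhac2 had 3.82 ± 0.79 CPM in high volume and 2.34 ± 1.48 in low volume. The groups overlapped, and the log2 difference was 1.01 with an SE of 0.63 (edgeR adjusted p = 0.794), but 0.44 without the low-volume 3 ng library. Pcdhb19 had 98, 142 and 117 tags in high volume and 4, 105 and 161 in low volume, a log2 difference of 1.40 ± 0.92 that was 0.34 without the low-volume 3 ng library, 0.85 without the high-volume 3 ng library and 2.53 without the high-volume 30 ng library. Pcdhgc3, with the smallest SE of all members, was at -0.03 ± 0.24. In the 10 and 30 ng libraries alone 0 of 37 members passed, where 1.73% of all genes did, and 2 had an unadjusted p under 0.05, against 16% of all genes. That fit leaves 1 residual degree of freedom to estimate the spread, against 3 with all 6 libraries, so its shares are uncertain. The SEs of the members had a median of 0.82 on the log2 scale, and differences of that size could not be told from the spread between these libraries.

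The second factor was the amount of RNA. Per doubling of input 0 of 37 members had an edgeR adjusted p under 0.05, as did 0% of all genes, and DESeq2 also called 0 members. At an unadjusted p under 0.05 there were 4 members, Pcdhb4, Pcdhb6, Pcdhb8 and Pcdhb14, against 7.76% of all genes. DESeq2 gave 9 members, against 12.6% of all genes. The difference per doubling was above 0 in 32 of 37 members, against 56.4% of all genes, and its median was 0.29, against 0.02. The filter on low counts needs tags in several libraries but not in a 3 ng library. Members kept through their 10 and 30 ng tags are therefore part of that count, and nothing is read from it. Without the low-volume 3 ng library the median of the members was 0.16, with 26 of 37 above 0.

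Pcdhb14 had 0, 15 and 26 tags in high volume and 0, 13 and 51 in low volume, which gave 1.63 ± 0.54 on the log2 scale per doubling (SE), with an edgeR adjusted p of 0.625. Pcdhb8 had 0, 33 and 30 tags in high volume and 0, 36 and 91 in low volume, at 1.62 ± 0.66 per doubling, which became 0.97 without the low-volume 3 ng library and 2.43 without the high-volume 30 ng library. Both were at 0 in each 3 ng library and present in every other one. Pcdhb4 had 3, 42 and 44 tags in high volume and 4, 19 and 82 in low volume, at 0.95 ± 0.33 per doubling. Pcdhgc3 was at 0.14 ± 0.09 per doubling.

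**Figure D4:**
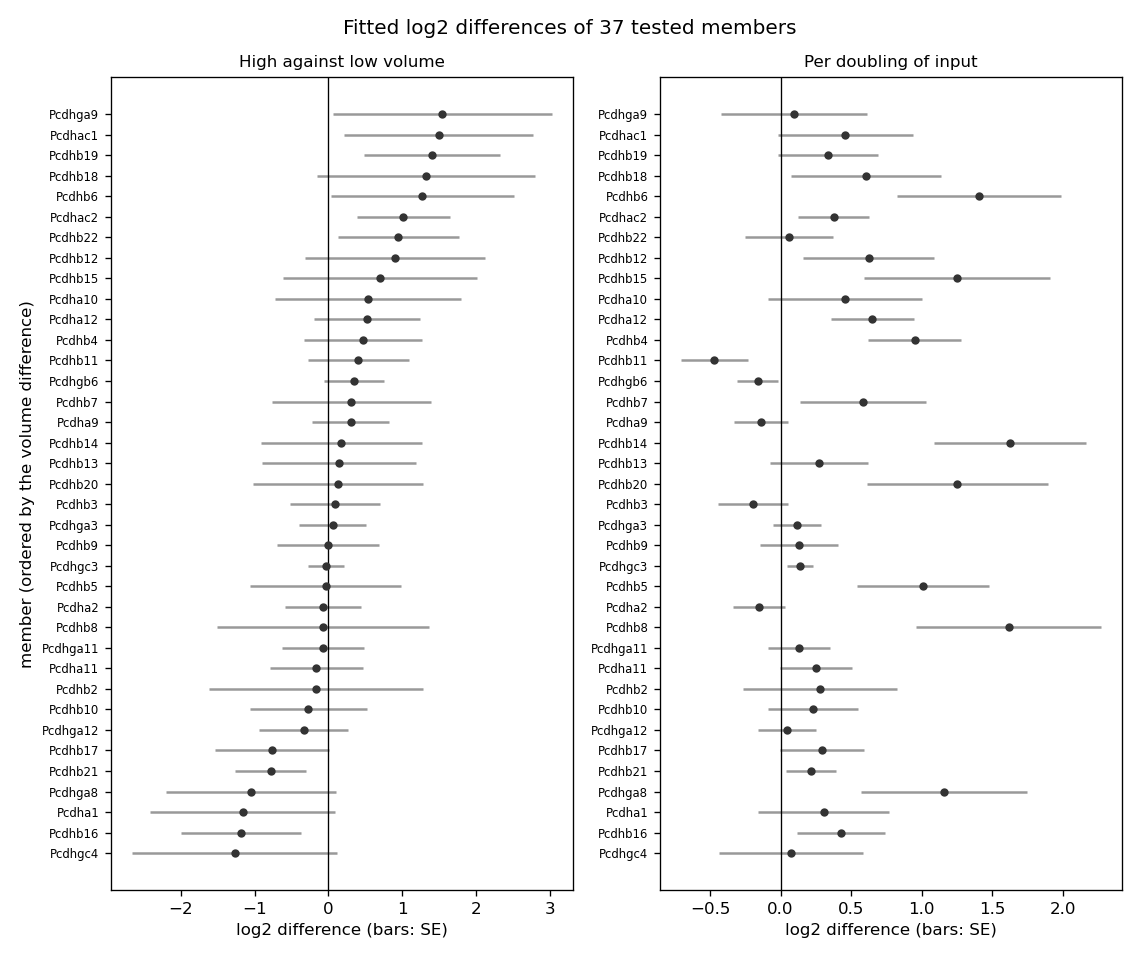
Fitted log2 differences (x axes) of the 37 tested members (rows, in the same order in both panels) for high against low volume, left, and per doubling of input, right, with SEs as bars. Volume differences spread from -1.27 to 1.54 around 0, and 32 of 37 differences per doubling of input lie above 0, with no member past the adjusted threshold in either panel.

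The 3 ng libraries stood apart from the others in which members they held. Between any pair of the 4 libraries of 10 and 30 ng the Spearman correlation of the 39 RPKM values was 0.845 to 0.890, while it was 0.425 to 0.643 for the 9 pairs with a 3 ng library, and lowest for the 2 libraries of 3 ng. These correlations are descriptions over 39 genes of 1 pool, and the 3 ng libraries are also the shallowest. At 3, 10 and 30 ng the number of members with 0 tags was 9, 2 and 2 in high volume and 12, 2 and 1 in low volume. The share of all genes at 0 tags was not set beside these counts, so they are not read as particular to the members. Both 3 ng values were below all 10 and 30 ng values in RPKM in 15 of the 37 tested members, or 40.5%, against 17.3% of all genes tested. Nothing is read from this count, since 4 of the 15, Pcdhb6, Pcdhb8, Pcdhb14 and Pcdhb15, had 0 tags in both 3 ng libraries and passed the filter only through the others. Among tested genes of like counts, with a mean of 9.83 to 200 tags, it was 14 of 36 members against 24.0% of all genes in that range. That range still holds the 4 members at 0 in both 3 ng libraries, so nothing is read from this count either. Both 3 ng values were above all 10 and 30 ng values in 3 members, Pcdha2, Pcdhb11 and Pcdhgb6, against 11.1% of all genes.

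Depth was taken into account by scaling the mean level of the 10 and 30 ng libraries to the tags of each 3 ng library. Of the 26 members with 20 to 100 tags expected, 3 had 0 tags in the high-volume 3 ng library and 5 had 0 in the low-volume one, against 8.39% and 11.1% of all genes in that range. Less than 25% of the expected tags were found for 8 of 26 members in high volume and 14 of 26 in low volume, against 19.1% and 23.8% of all genes in that range. Members and genes enter the range through their 10 and 30 ng tags alone, so those high only at 3 ng, such as Pcdhgc5, are left out. Nothing is therefore read from these counts. Pcdhb20 had 5 tags in the high-volume library, where 70.5 were expected, and 0 in the low-volume one, where 79.2 were expected. Pcdhac1 had 42 tags with 31.4 expected in high volume and 0 with 35.2 expected in low volume, and Pcdhgc4 had 0 with 22.8 expected in high volume and 77 with 25.6 expected in low volume. Pcdhgc3, one of the 15 members with both 3 ng values lowest, had 174 tags with 226 expected in high volume and 180 with 254 expected in low volume.

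**Figure D5:**
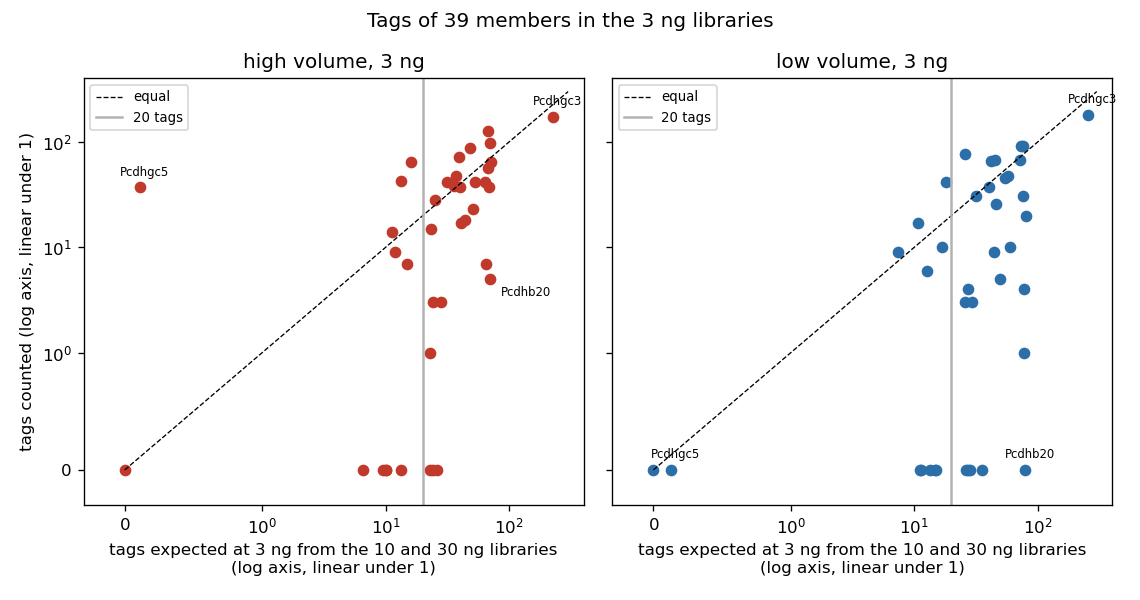
Tags counted in the 3 ng library (y axis) against tags expected there from the 10 and 30 ng libraries (x axis), for the 39 members in high volume, left, and low volume, right. Both axes are logarithmic above 1 and linear below it, the dashed line marks equal values and the grey line marks 20 expected tags. Right of the grey line 3 members in high volume and 5 in low volume are at 0, and Pcdhgc5 in high volume lies far above the line with 37 tags.

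Single pairs of libraries were also compared at each input. Among members with 20 to 400 tags in a pair, 16 of 25 differed more than 2-fold between high and low volume at 3 ng, 6 of 34 at 10 ng and 5 of 36 at 30 ng. The shares of all genes in that range were 57.1%, 20.7% and 12.6%, so in each pair the members lay close to genes of like counts. Between 30 and 10 ng, 3 of 36 members differed more than 2-fold in high volume and 11 of 36 in low volume, against 13.7% and 16.9% of all genes. These pairs have 1 library a side and no test.

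Genes that work with the clusters were measured beside them. Of 12 nonclustered protocadherins, which are single genes outside the clusters, 7 had a mean RPKM of 1 or more. Pcdh9 was highest at 10.4 ± 2.30, followed by Pcdh18 at 2.58 ± 0.59, and Pcdh20 was lowest at 0.0408 ± 0.045 (SD, n = 6). Of 17 genes of promoter choice and chromatin 16 reached 1, led by Trim28, a corepressor, at 31.7 ± 3.83 and the cohesin subunit Smc1a at 15.4 ± 0.98. The lowest was Dnmt3b, a DNA methyltransferase that in the mouse acts on clustered protocadherin promoters, at 0.299 ± 0.19.

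Of 14 cytoplasmic partners and processing enzymes 13 reached 1. Pdcd10 (CCM3), which binds the gamma constant domain, was at 37.6 ± 7.72, Ncstn, a gamma-secretase subunit, at 34.2 ± 7.49, and Ptk2b (Pyk2), a kinase that protocadherins inhibit, lowest at 0.664 ± 0.84. In these 3 lists 0 of 12, 0 of 17 and 0 of 14 genes passed the edgeR threshold for volume, where 0.0062% of all genes did, and 0 of each passed for input, where 0% did. Their median log2 differences between volumes were 0.29, 0.18 and -0.13 against 0.02 for all genes, and per doubling of input 0.10, 0.04 and 0.05 against 0.02.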

How the data were processed

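The authors deposited tag counts and RPKM values of transcripts, exons and introns. CASAVA 1.8, TopHat2 2.0.8, Bowtie2 2.1.0 and the build GRCm38.p1 are named in the submitters' processing notes. Not given in the sources used here are how reads were counted, how reads with several matches were treated and which annotation release was used. The 22 exon intervals present on both strands had equal counts in 117 of 117 cases with tags, so strand was taken as unused. Transcripts were matched to genes with GENCODE M21 (89664 of 93615), and each gene was represented by its transcript with the largest count. Alpha and gamma members were represented by their first exon, beta members by the whole transcript.

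The test of these counts was the quasi-likelihood test of edgeR 4.0.16, run in R 4.3.3 (TMM, filterByExpr by volume, terms for volume and centred log2 input), with Benjamini-Hochberg adjustment over 16119 genes and a threshold of 0.05. SEs of the log2 differences were calculated back from the edgeR log2 difference and its test statistic, not taken from the fit. They are approximate, above all for members with 0 tags in some libraries. DESeq2 1.42.0 was an alternative. CPM used tags of all chosen features. C-type pairs were compared on log2(RPKM + 1), with 0.1 in place of 1 as an alternative. The script was tested on simulated data. Libraries were paired by their labelled input alone. Deviations from the volume means correlated at 0.160, 0.121 and 0.158 between the libraries of 3, 10 and 30 ng over 16119 genes. The high-volume 10 ng and low-volume 30 ng libraries, which differ in input, reached 0.130, so these correlations do not establish the pairing. A fit with input as replicate block was run.

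Genes named were the C-type genes, the 3 highest and 2 lowest members by mean RPKM in each of alpha, beta, gamma A and gamma B, the 3 lowest p-values of each comparison, members at 0 throughout and, of other lists, the 2 highest genes and the lowest. Other members are named where a count or an outlying value concerns them. The members and lists were chosen with earlier results of these data known. Member sequences are not reported here.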

Additional observations from a re-analysis of the deposited data

Results flagged for a closer look

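The 6 libraries of the pool were screened for a single RPKM value far from the other 5 in each of the 38 members with tags, and 5 members had one, where chance flags about 1 in 20 groups. The same screen marked 13.3% of all 16119 genes tested and 1142 of the 6730 with a like mean, of 9.83 to 200 tags, against 4 of the 36 members in that range. All 5 values came from 3 ng libraries, as did 95.8% of those of the 6730 genes. In the high-volume 3 ng library Pcdha9 stood highest at 2.29 against a next value of 1.41, Pcdhgb6 highest at 3.22 against 2.10, Pcdhgc5 highest at 0.923 against 0.011, and Pcdhb17 lowest at 0.138 against 1.19. In the low-volume 3 ng library Pcdhgc4 stood highest at 1.57 against 0.558.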

How the results depend on the processing

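The count of members past the threshold was 0 for volume and 0 for input under every alternative run, the replicate block and each left-out library included, and 0 C-type pairs passed under any. For volume, DESeq2 gave the members no adjusted p, so that run could not call a member. With 5 libraries the sign-flip test cannot pass. With 0.1 added in place of 1 the order of the genes in each library stays the same, so that run could not pass either. For volume 1 gene was called. The count was 287 in the 10 and 30 ng libraries alone, a fit with 1 residual degree of freedom, against 3 with all 6 libraries. It was 179 with DESeq2, 9 without the filter, 0 with input as replicate block, and 0 to 2 with 1 library left out (0 without the low-volume 3 ng library, 2 without the high-volume 30 ng library). Per doubling of input 0 genes were called, 36 with DESeq2 and 2 without the filter. CPM in place of RPKM, which does not scale for exon length, gave shares of 19.1% for alpha, 42.0% for beta and 38.8% for gamma. The largest share was thus that of beta, whose genes are counted over the whole transcript. Transcript RPKM put 19 members at 1 or more, where constant exons add to alpha and gamma members; leaving out 1 library gave 9 to 12. With transcript counts the volume difference turned to -0.19 for Pcdhac1 and -0.18 for Pcdhac2, and the difference of Pcdhgc4 per doubling to -0.013; in the 10 and 30 ng libraries the volume difference of Pcdhgc4 was 0.13, for which the cause was not tested. With 1 library left out, the volume difference of Pcdhgc3 ran from -0.18 to 0.094, that of Pcdhgc4 per doubling from -0.37 to 0.90, and Pcdhac1 minus Pcdhgc4 from -0.049 to 0.44. The members' median coefficient of variation was 58.5% over all libraries and 30.5% without those of 3 ng; the part of depth in it was not tested.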
